A study of Homo sapiens with 15 samples.

Results

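Bipolar cells relay light signals from photoreceptors to the inner retina, and 10 genes used to recognise them were followed in retinal organoids (ROs) and in Müller glial cells grown from those ROs. The genes were GRM6, TRPM1, VSX1, LHX4, BHLHE23, CABP5, PRKCA, GRIK1, CA10 and TMEM215, found by symbol among the 19684 genes of the count and FPKM tables. All libraries came from BC1-GFP, 1 human induced pluripotent stem cell line (hiPSCs) of wild-type genotype with no treatment named, so no second line or donor was sampled. The 5 groups had 3 libraries each and comprised undifferentiated hiPSCs, neural retina (NR) layers cut from ROs at D70 of differentiation (D70-ROs) or at D150 (D150-ROs), and induced Müller glial cells (iMGCs) collected on the fifth day of passage 1 (P1) or passage 5 (P5). The iMGCs were adherent serum cultures of dissociated NR from D150-ROs, and the organoid libraries pooled several ROs each. Poly(A) RNA was sequenced, and each gene has an RSEM expected count (its estimated reads, not scaled) and an FPKM, a level scaled for transcript length and for the mapped fragments of the library.

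In the retina, photoreceptors release glutamate in darkness, and ON and OFF bipolar cells read that signal with opposite sign. ON bipolar cells use the metabotropic receptor mGluR6, encoded by GRM6, which acts through a G protein to close the cation channel TRPM1, whereas OFF bipolar cells use ionotropic receptors such as the kainate receptor subunit encoded by GRIK1. Bipolar cells are among the last retinal neurons to be born, and their subtypes are set by transcription factors that include VSX1, LHX4 and BHLHE23.

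The hiPSCs carried the markers of their label, and the iMGCs did so only in part. The summed FPKM of 4 pluripotency markers lay between 2949 and 3115 in hiPSCs and did not exceed 8.21 in any other library. Of 6 Müller glia markers, 5 were tested between P1 iMGCs and D150-ROs, and VIM, which many other cells also make, was called higher while GLUL, SLC1A3, SOX9 and RLBP1 were called lower. VIM, at 2160 ± 19.96 FPKM (SD, n = 3), made up nearly all of their summed level in P1, where RLBP1 and AQP4 were at 0 in all 3 libraries, and 6 mesenchymal and matrix markers summed to between 12397 and 13061 there. Library totals of expected counts ran from 11349600 in D70-RO replicate 2 to 20398755. The FPKM of ROs and iMGCs come from separate tables, so tests between them used the counts. The descriptions name 1 or 2 sequencing companies and a correction for batches, with no library assigned to either, so a batch coinciding with a group cannot be told apart from that group. They also differ on the number of independent experiments for hiPSCs and ROs, so the p-values measure the spread between these libraries, which may be partly technical.

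Of the 10 bipolar cell genes, 7 reached their highest level in D150-ROs, and 6 of those were then at or near 0 in iMGCs, whereas PRKCA was highest in iMGCs and TRPM1 and BHLHE23 stayed close to the limit of detection throughout. A gene was called when its Benjamini-Hochberg adjusted p was under 0.05 in edgeR and its fold change was at least 2. Between D70-ROs and hiPSCs, 8 of the 10 genes had enough counts to be tested. GRM6, VSX1, CABP5, GRIK1, CA10 and TMEM215 were called higher in D70-ROs, PRKCA was called lower and LHX4 was not called. Among all genes tested 46% were called in either direction, 23.5% higher and 22.5% lower. GRM6, VSX1, GRIK1 and TMEM215 reached the filter's minimum in all 3 libraries of D70-ROs only. GRM6, VSX1 and TMEM215 were under it in every hiPSC library and so had to be higher in D70-ROs. For GRIK1, hiPSC replicate 3 also reached it, so a rise was favoured but not fixed. The 7 calls fell to 3 with a filter at 1 FPKM or with limma on log2(FPKM + 1), and to 4 in a test against a 2-fold change. Between D150-ROs and D70-ROs the same 8 genes were tested and all 8 were called higher, against 17.4% of all genes higher, 17.4% lower and 34.7% in either direction. Between D150-ROs and hiPSCs 7 of 8 were called higher and PRKCA was under the fold limit, against 30.3% of all genes higher, 29.6% lower and 59.9% in either direction. The same 4 genes passed the filter there through D150-ROs only, whereas between the RO stages all 8 passed in both groups. These comparisons share libraries and are not independent of each other.

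The transition to iMGCs reversed the direction for all but 1 of the genes tested. Between P1 iMGCs and D150-ROs 7 of 8 tested genes were called lower, against 26% of all genes, and PRKCA was called higher, as were 20.4% of all genes (46.4% in either direction). Of the 7, only LHX4 also had the counts in P1 iMGCs to be tested without the D150-RO libraries, and the others, which passed the filter only through those libraries, had to differ. The study itself names GRM6 and CA10 as lower in passaged iMGCs than in D150-ROs, from the same experiments but without giving the passage. Their fall is therefore not independent evidence. Between P5 and P1 iMGCs only LHX4 and PRKCA could be tested, and 0 of them was called by edgeR, against 2.64% of all genes higher, 1.83% lower and 4.46% in either direction. At an unadjusted p under 0.05 PRKCA alone passed. It also passed after adjustment (edgeR adjusted p = 6.58e-06) and was not called because its fold change was under 2. DESeq2 also called 0. Between P1 iMGCs and hiPSCs 4 genes were tested, of which PRKCA was called higher (26.3% of all genes) and LHX4, CABP5 and CA10 lower (31.3% of all genes, with 57.7% in either direction), CABP5 and CA10 having passed through hiPSCs only. Groups whose libraries do not overlap in FPKM are named gene by gene in what follows, and such separation was common among all genes tested. It held for 40% of genes upward and 34.9% downward in D70-ROs against hiPSCs, for 46.1% and 29.6% in D150-ROs against D70-ROs, and for 49.8% and 36.4% in D150-ROs against hiPSCs. In P1 iMGCs it held for 22.6% upward and 64.4% downward against D150-ROs and for 32.6% and 52.5% against hiPSCs, and between the passages for 14.1% upward and 24.7% downward from P1 to P5. In a bulk library, fewer bipolar cells and less RNA per bipolar cell cannot be told apart.

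**Figure D1:**
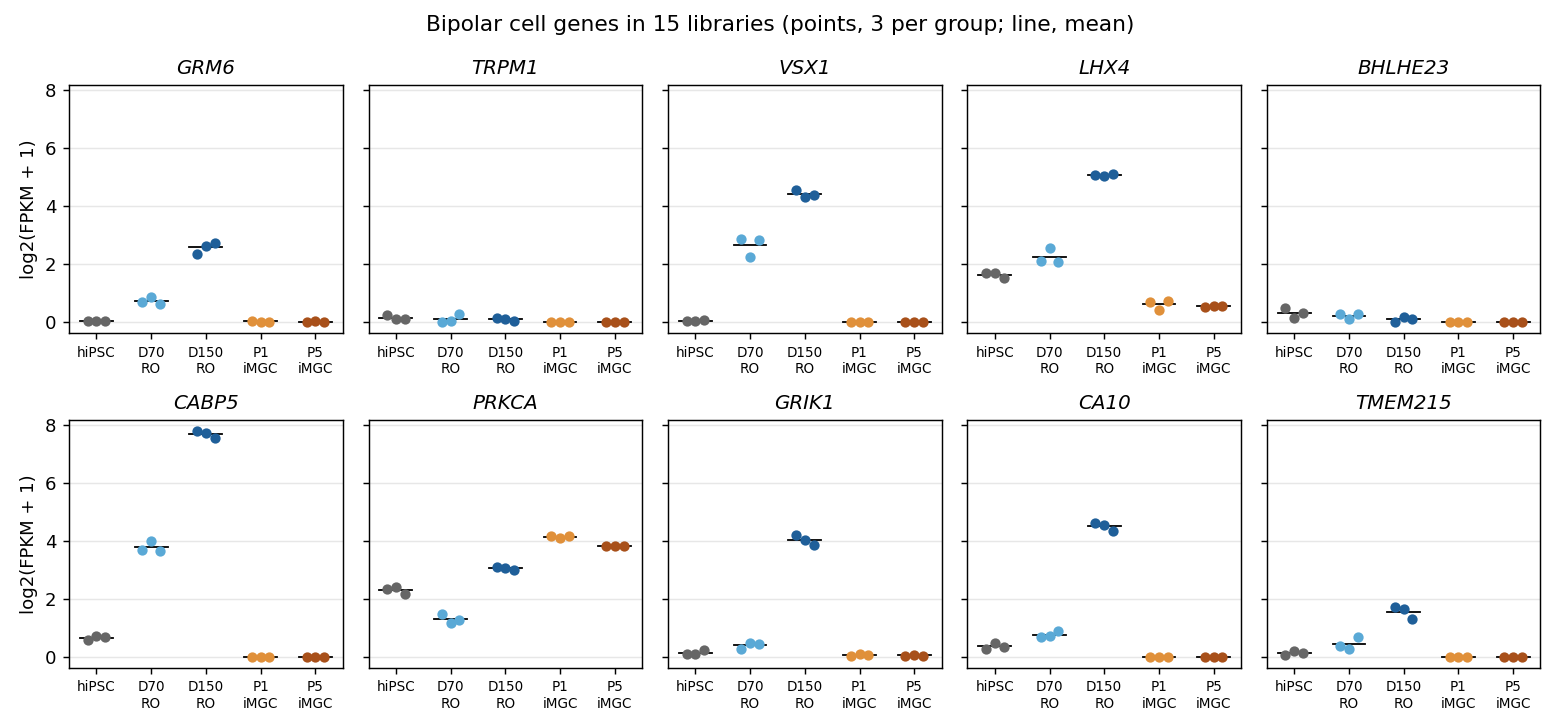
Level of each bipolar cell gene as log2(FPKM + 1) on the vertical axis in the 3 libraries (points) of each of 5 groups, with the group mean as a line. CABP5, LHX4, VSX1, CA10, GRIK1, GRM6 and TMEM215 peaked in D150-ROs, PRKCA was highest in P1 iMGCs, and TRPM1 and BHLHE23 did not exceed 0.38 FPKM in any library.

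A change from edgeR on counts to limma on FPKM moved the split of all genes but not the direction of any bipolar cell gene tested. The test and the pseudocount changed along with the scaling, and which of them moved the split was not tested. In D150-ROs against D70-ROs, edgeR with TMM scaling of the counts called 2446 genes higher and 2451 lower, and limma on log2(FPKM + 1) called 2262 higher and 1313 lower, where the median of all genes tested moved from −0.01 to 0.18. Between P1 iMGCs and D150-ROs the split moved from 2880 higher and 3666 lower to 1339 higher and 4540 lower, and the median from −0.07 to −0.55. Between P1 iMGCs and hiPSCs it moved from 3729 higher and 4437 lower to 2287 higher and 4178 lower, and the median from −0.11 to −0.32. The median of the 8 tested bipolar cell genes, on the log2 fold change scale, was 2.81 in D150-ROs against D70-ROs beside −0.01 for all genes.

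GRM6 encodes mGluR6 on the dendrites of ON bipolar cells (ENSG00000113262, chromosome 5, 178977587 to 178996206, minus strand in GENCODE 29 on GRCh38). Its FPKM was 0.03, 0.03 and 0.02 in the hiPSC libraries, 0.59, 0.79 and 0.53 in the D70-RO libraries and 4.08, 5.18 and 5.65 in the D150-RO libraries. Every D70-RO library was above every hiPSC library and below every D150-RO library. On the log2 scale, GRM6 rose by 4.49 in the first step, between hiPSCs and D70-ROs (standard error 0.41, edgeR adjusted p = 2.18e-06), and by 2.74 in the second, between both RO stages (standard error 0.20, edgeR adjusted p = 3.29e-06). With limma on log2(FPKM + 1), the first step was 0.67, under 2-fold and not called. Its mean of 4.97 ± 0.806 FPKM (SD, n = 3) in D150-ROs put it above 49.5% of all genes, so the receptor was a moderate transcript there. In iMGCs, GRM6 was nearly absent, with 2 counts in P1, both in replicate 1, and 1 count in P5, where D150-ROs had 1470. From counting error alone, the log2 ratio of P1 iMGCs to D150-ROs had a 95% interval of −11.97 to −7.07.

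TRPM1, the cation channel that mGluR6 controls, did not rise with its receptor (ENSG00000134160, chromosome 15, 31001061 to 31161273, minus strand). Its FPKM was 0.17, 0.06 and 0.06 in the hiPSC libraries, 0, 0.02 and 0.19 in the D70-RO libraries and 0.10, 0.06 and 0.01 in the D150-RO libraries, and these groups overlapped. Behind these levels were 11 counts in hiPSCs, 13 at D70, 12 of them in replicate 3, and 13 at D150, so TRPM1 never passed the filter on low counts. With no filter, TRPM1 had a log2 fold change of −0.17 between the RO stages (standard error 1.09, edgeR adjusted p = 0.907). In D150-ROs the mean level of TRPM1 was 0.0567 FPKM beside 4.97 for GRM6 on the same scale per transcript length. A difference in TRPM1 between hiPSCs and ROs was not detectable at this depth. Both iMGC groups had 0 counts, and P1 was at least 2.86-fold lower than D150-ROs against a floor of 3 counts over the group, a difference that was called only with no filter (adjusted p = 0.0219 in edgeR). GENCODE 29 places an antisense RNA over TRPM1 that shares 334 exon bases with it, and whether the counting used strand is not given in the sources used here.

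Most, but not all, of the other parts of the ON cascade rose with GRM6 between the RO stages. This list held 10 genes, chosen for their known roles: the G protein subunits GNAO1, GNB3 and GNG13, the complex that ends the signal (RGS7, RGS11, GNB5 and the anchor RGS9BP), and the synaptic proteins GPR179, NYX and LRIT3. Between D150-ROs and D70-ROs, 6 of 9 tested were called higher and 0 lower in edgeR, with a median log2 fold change of 2.70 beside −0.01 for all genes tested, and 2 of them, GPR179 and GNG13, passed the filter through D150-ROs only. GPR179, an orphan receptor that holds the complex at the dendrite, had the largest rise, from 0.0767 ± 0.0473 to 1.34 ± 0.0635 FPKM (SD, n = 3), which was 3.74 on the log2 scale (standard error 0.31, edgeR adjusted p = 7.12e-06). GNG13, the gamma subunit, had the next largest, at 3.57 (standard error 0.67, edgeR adjusted p = 0.00115), with D150-RO libraries from 1.42 in replicate 3 to 4.67 FPKM. GNB3, the beta subunit, was the most abundant, at 448 ± 34.6 FPKM in D150-ROs. GNB3 is also a cone photoreceptor transducin subunit, so its level is not specific to bipolar cells.

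NYX, the nyctalopin that localises TRPM1 at the dendrite, was as scarce as the channel, with 4 counts in D150-ROs and 0 in D70-ROs. LRIT3, also required for TRPM1 at the synapse, reached 5.21 ± 0.821 FPKM in D150-ROs, close to GRM6. GNAO1, the alpha subunit coupled to mGluR6, had 6.46 to 10.77 FPKM in D150-ROs and overlapped D70-ROs, with a log2 fold change of −0.20 that was not called (adjusted p = 0.380 in edgeR). From hiPSCs to D70-ROs, 4 of 7 tested genes of this list were called higher, GNB3 (log2 fold change 5.00) and LRIT3 (3.27) most, and GNAO1 was called lower (−1.28). LRIT3, RGS11 and RGS9BP passed that filter through D70-ROs only and so had to be higher, whereas GNB3 and GNAO1 passed in both groups. In P1 iMGCs against D150-ROs all 9 tested were called lower, 6 of which passed the filter through D150-ROs only and had to be lower. GNB3, GNB5 and RGS11 passed in both groups. The largest fall among genes of this list with counts in P1 was that of GNB3 (log2 fold change −8.03, standard error 0.10, adjusted p = 1.31e-19 in edgeR with Benjamini-Hochberg adjustment). GNG13 went from 165 counts in D150-ROs to 0 in P1, so its fall has only a bound and its rank is not known. GNB5 remained at 12.58 ± 0.142 FPKM in P1 iMGCs, the highest level of the list there.

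**Figure D2:**
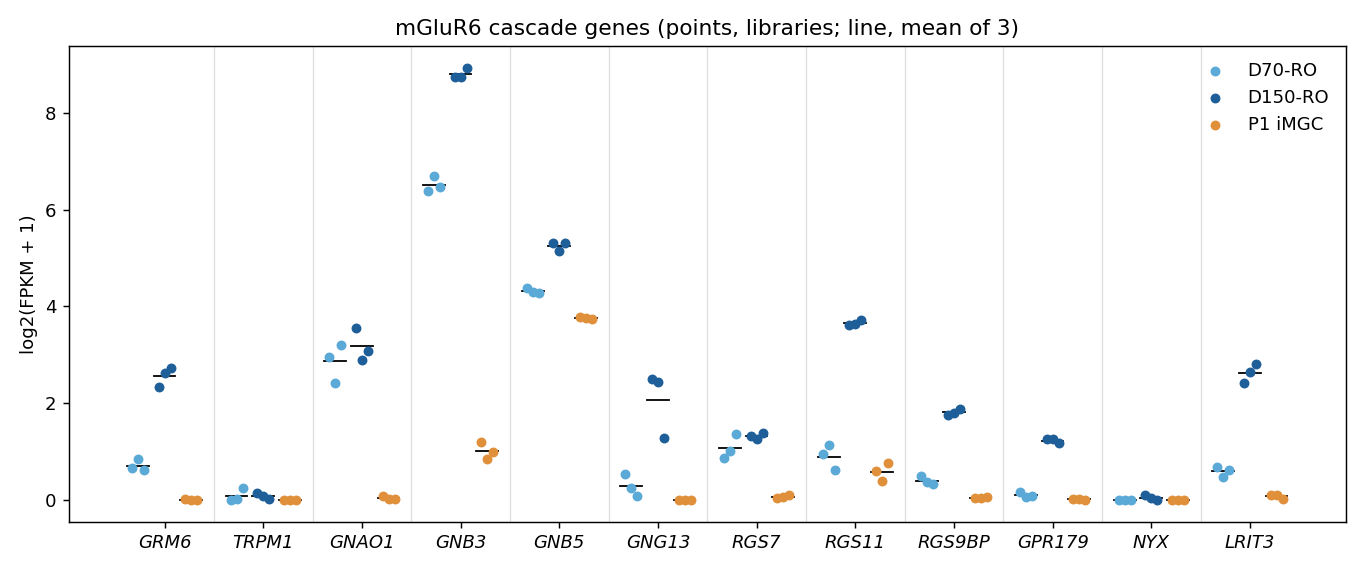
Level of GRM6, TRPM1 and 10 further genes of the mGluR6 cascade as log2(FPKM + 1) on the vertical axis in the 3 libraries (points) of D70-ROs, D150-ROs and P1 iMGCs, with the mean as a line. In D150-ROs, TRPM1 and NYX lay near 0 while GRM6, RGS11, GPR179 and LRIT3 were above their D70-RO levels.

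VSX1, a homeodomain factor of OFF bipolar subtypes, had the largest early rise of the 8 genes tested (ENSG00000100987, chromosome 20, 25070885 to 25082365, minus strand). Its FPKM was 0.02, 0.02 and 0.04 in the hiPSC libraries, 6.34, 3.69 and 6.08 in the D70-RO libraries and 22.32, 19.01 and 19.87 in the D150-RO libraries. The 3 groups did not overlap, and D70-RO replicate 2, the shallowest library, had the lowest D70 value. By edgeR with Benjamini-Hochberg adjustment, the log2 fold change of VSX1 was 6.92 in the first step (standard error 0.39, adjusted p = 4.96e-08), where hiPSCs had 4 counts in all, and 1.69 in the second (standard error 0.16, adjusted p = 1.64e-05). In iMGCs VSX1 had 0 counts at both passages. The level in P1 was therefore at least 400.02-fold lower than in D150-ROs, against a floor of 3 counts over the group.

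LHX4, a LIM-homeodomain factor of bipolar cells that is also expressed in developing cones, rose mainly in the second step (ENSG00000121454, chromosome 1, 180230286 to 180278982, plus strand). The hiPSC libraries had 2.19, 2.25 and 1.85 FPKM, the D70-RO libraries 3.24, 4.88 and 3.18, and the D150-RO libraries 32.78, 31.74 and 33.42. The early difference of 0.70 on the log2 scale was under 2-fold (standard error 0.21, adjusted p = 0.0105 in edgeR with Benjamini-Hochberg adjustment). The later one was 2.89 (standard error 0.17, edgeR adjusted p = 1.22e-06). In iMGCs, LHX4 had 0.62, 0.34 and 0.65 FPKM at P1 and 0.42, 0.45 and 0.47 at P5, and these groups overlapped. From D150-ROs to P1 iMGCs, LHX4 had a log2 fold change of −5.27 (edgeR adjusted p = 5.64e-17, standard error 0.11), and its P1 level was also below that of hiPSCs (log2 fold change −1.68, edgeR adjusted p = 1.01e-05, standard error 0.21). LHX4 shares 1866 exon bases with ACBD6 on the opposite strand, and it was the only one of the 10 genes with counts that were not whole. ACBD6 did not follow it, with means of 37.1 FPKM in hiPSCs, 28.4 and 14.1 in the RO stages and 13.3 in P1 iMGCs. The part of ACBD6 reads in the low LHX4 values of hiPSCs and iMGCs was not tested.

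BHLHE23, a basic helix-loop-helix factor of rod bipolar cells, was not raised in the ROs (ENSG00000125533, chromosome 20, 63005927 to 63007035, minus strand). Libraries of hiPSCs had 0.38, 0.10 and 0.23 FPKM, those of D70-ROs 0.19, 0.08 and 0.20, and those of D150-ROs 0, 0.12 and 0.06. Those levels rest on 15, 9 and 3 counts, the groups next to each other in this order overlapped, and the gene did not pass the filter. From counting error alone, the log2 ratio of D150-ROs had a 95% interval of −4.31 to 0.22 to D70-ROs and of −4.82 to −0.57 to hiPSCs. With no filter, the log2 fold change of BHLHE23 in D150-ROs against hiPSCs was −2.24 (standard error 1.04, adjusted p = 0.0604 in edgeR). Both iMGC groups had 0 counts of BHLHE23, and P1 was at least 3.46-fold lower than hiPSCs, called only with no filter (adjusted p = 0.0131 in edgeR).

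The promoters of these genes were searched for letters that retinal transcription factors are known to bind. The RefSeq windows, from 250 bases before to 50 after each start site on GRCh38.p14, matched 8 of the 10 genes with 12 windows, and CABP5 and GRIK1 had none. The letters TAATCC, read on both strands, are the core that OTX2 and CRX bind, and they occurred in 1 of the 12 windows, that of TRPM1, and in 6.36% of all 35116 windows. The homeodomain core TAATTA occurred in 0 of the 12 windows and in 4.84% of all. The E-box CANNTG, which helix-loop-helix factors bind, occurred in 6 of the 12 windows, which belong to 4 genes, and in 68.7% of all windows. The windows of 1 gene can overlap, a match is a description of letters only, and no match says only that these letters are not in this window. Stretches free of GENCODE 29 exons are shown for VSX1 and LHX4, the transcription factors that rose, each the 120 bases before the start site, at chr20:25081332-25081451 on the minus strand and chr1:180230144-180230263 on the plus strand. The third shows 30 bases around the match of TRPM1, at chr15:31161220-31161249 on the minus strand, and overlaps 1 GENCODE 29 exon. The stretches of VSX1 and TRPM1 lie inside the GENCODE 29 gene spans given above. All stretches read from 5′ to 3′ along the gene, with TAATCC on either strand and CANNTG in capitals.
VSX1: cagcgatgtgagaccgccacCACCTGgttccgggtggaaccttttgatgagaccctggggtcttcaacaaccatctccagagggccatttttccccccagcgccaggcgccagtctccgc
LHX4: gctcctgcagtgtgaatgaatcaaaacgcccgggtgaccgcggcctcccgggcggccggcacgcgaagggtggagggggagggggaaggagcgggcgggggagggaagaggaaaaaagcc
TRPM1: ttggggatggagGGATTAagcctgattaca
In these stretches VSX1 holds 1 E-box and LHX4 none of the letters searched. TRPM1, the gene with the OTX2 and CRX core, stayed low in D150-ROs, where OTX2 had 447 ± 24.9 FPKM.

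CABP5, a calcium-binding protein of bipolar cells, was by far the most abundant of the 10 genes in ROs (ENSG00000105507, chromosome 19, 48029953 to 48044053, minus strand). It had 0.47, 0.63 and 0.58 FPKM in the hiPSC libraries, 11.82, 15.07 and 11.45 in the D70-RO libraries and 221.8, 212.22 and 185.94 in the D150-RO libraries. The groups were far apart, and replicate 3 had the lowest of the D150-RO values. With 206.7 ± 18.6 FPKM (SD, n = 3) in D150-ROs, CABP5 ranked 207 among 19684 genes. CABP5 rose by 4.34 in the first step (standard error 0.25, edgeR adjusted p = 5.90e-08) and by 3.79 in the second (standard error 0.15, edgeR adjusted p = 1.13e-07), as log2 fold changes. The 6 iMGC libraries had 0 counts of CABP5, against 12515 in D150-ROs, and P1 was at least 2755-fold lower. P1 iMGCs were also at least 9.70-fold lower than hiPSCs, which had 42 counts.

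PRKCA, protein kinase C alpha, marks rod bipolar cells in the mature retina but is made by many cell types, and its course was unlike that of the other 9 genes (ENSG00000154229, chromosome 17, 66302636 to 66810743, plus strand). The FPKM of PRKCA was 4.05, 4.35 and 3.50 in the hiPSC libraries, 1.78, 1.25 and 1.41 in the D70-RO libraries and 7.59, 7.29 and 6.89 in the D150-RO libraries. In iMGCs it was 16.92, 16.33 and 16.95 at P1 and 13.15, 13.20 and 13.12 at P5. All 5 groups were separate, from D70-ROs as the lowest to P1 iMGCs as the highest. By edgeR with Benjamini-Hochberg adjustment, PRKCA fell by 1.57 on the log2 scale in the first step (edgeR adjusted p = 6.67e-06, standard error 0.17) and rose by 2.05 in the second (standard error 0.13, adjusted p = 1.61e-06). D150-ROs were above hiPSCs by 0.50 (standard error 0.11, adjusted p = 0.000882), which is under 2-fold. From D150-ROs to P1 iMGCs PRKCA rose by 1.86 on the log2 scale of TMM-scaled counts (standard error 0.05, edgeR adjusted p = 3.48e-15), and by 1.10 with limma on log2(FPKM + 1). P5 iMGCs lay below P1 iMGCs by −0.29 (standard error 0.04, adjusted p = 6.58e-06 in edgeR), a difference larger than the spread of these libraries and under 2-fold.

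GRIK1, the kainate receptor subunit of OFF bipolar cells, rose almost wholly in the second step (ENSG00000171189, chromosome 21, 29536933 to 29940033, minus strand). GRIK1 stood at 0.05, 0.06 and 0.16 FPKM in the hiPSC libraries, at 0.21, 0.39 and 0.35 in the D70-RO libraries and at 17.53, 15.36 and 13.59 in the D150-RO libraries. The D150-RO libraries stood far above the others, and the early groups were separate by a narrow margin, on 18 counts in hiPSCs and 49 in D70-ROs. The early log2 fold change was 1.59 (standard error 0.57, adjusted p = 0.0254 in edgeR with Benjamini-Hochberg adjustment). This early call did not hold with DESeq2 (adjusted p = 0.0525), nor in edgeR without D70-RO replicate 2 (0.0598), D70-RO replicate 3 (0.0726), hiPSC replicate 1 (0.0914) or hiPSC replicate 2 (0.0926), and without hiPSC replicate 3 the log2 fold change was 2.53. In the second step GRIK1 had the largest rise of the 8 genes tested, with a log2 fold change of 5.44 (edgeR adjusted p = 1.52e-07, standard error 0.22). In P1 iMGCs it had 0.02, 0.07 and 0.04 FPKM and 6 counts in all, and P5 iMGCs had 4 counts. Against D150-ROs, the log2 fold change in P1 iMGCs was −8.02 (edgeR adjusted p = 4.64e-15, standard error 0.23). BACH1, which shares 45 exon bases with GRIK1 on the opposite strand, had means of 21.6 FPKM in D150-ROs and 36.9 in P1 iMGCs and so did not fall with it.

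CA10, a carbonic anhydrase-related protein, followed the course of GRIK1 at slightly higher levels (ENSG00000154975, chromosome 17, 51630313 to 52160017, minus strand). The hiPSC libraries had 0.20, 0.37 and 0.26 FPKM, the D70-RO libraries 0.60, 0.62 and 0.85 and the D150-RO libraries 23.75, 22.23 and 19.14. No 2 of these groups overlapped. Its log2 fold change was 1.38 in the first step (standard error 0.34, adjusted p = 0.00357) and 4.72 in the second (standard error 0.17, adjusted p = 9.92e-08), by edgeR with Benjamini-Hochberg adjustment. Set against a change of 2-fold in place of 0, the first was no longer called (edgeR adjusted p = 0.128). CA10 had 0 counts in the 6 iMGC libraries, at least 596-fold lower in P1 than in D150-ROs and at least 8.55-fold lower than in hiPSCs.

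TMEM215, a transmembrane protein enriched in bipolar cells, had the lowest D150-RO level of the 8 genes tested (ENSG00000188133, chromosome 9, 32783499 to 32787399, plus strand). Its 3 hiPSC libraries had 0.03, 0.13 and 0.10 FPKM, its D70-RO libraries 0.28, 0.20 and 0.60 and its D150-RO libraries 2.26, 2.14 and 1.47. The 3 groups did not overlap, although D70-RO replicate 3 stood well above the others of its group. Its log2 fold change was 1.95 in the first step (standard error 0.58, adjusted p = 0.0101) and 2.16 in the second (standard error 0.37, adjusted p = 0.000614), by edgeR with Benjamini-Hochberg adjustment. The first was no longer called without D70-RO replicate 3 (log2 fold change 1.37, adjusted p = 0.0724 in edgeR) or set against a 2-fold change (0.0655). With 0 counts in iMGCs and 337 in D150-ROs, TMEM215 was at least 74.2-fold lower in P1.

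**Figure D3:**
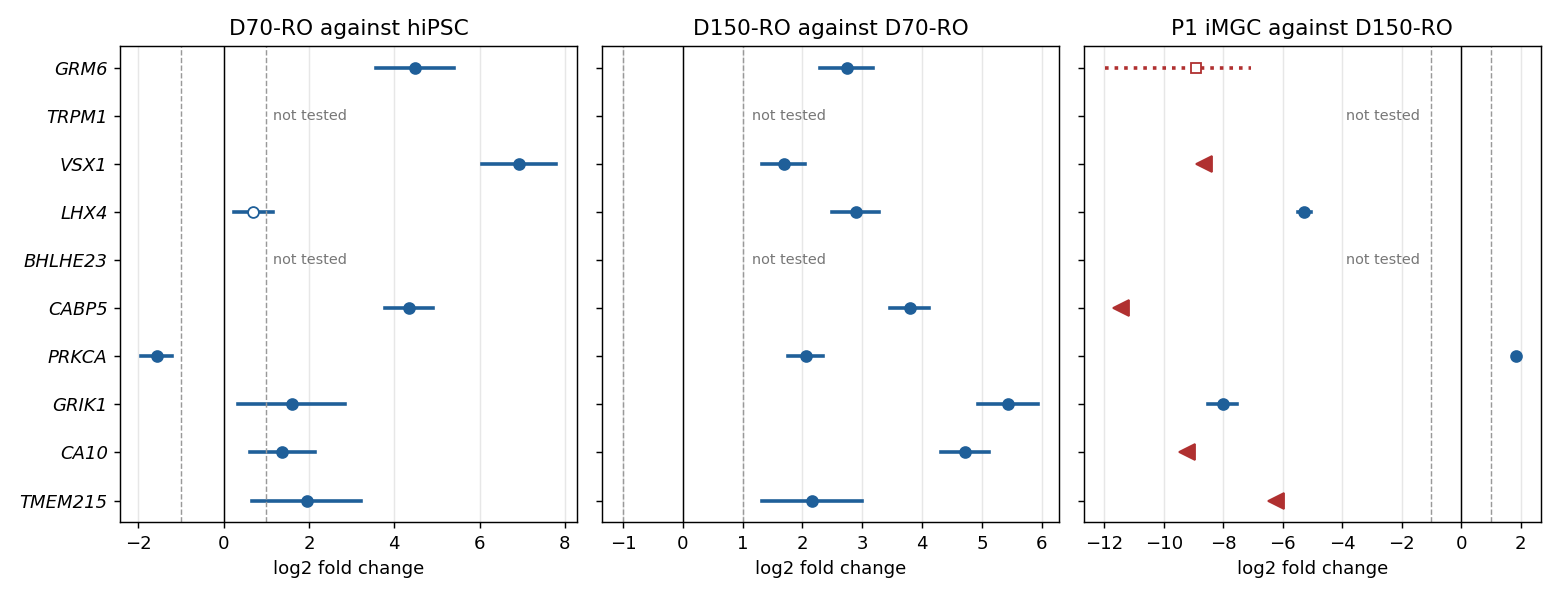
Log2 fold change of each bipolar cell gene (horizontal axis) in 3 comparisons, with the 95% confidence interval of the edgeR fit as a bar, filled points for called genes, and dashed lines at a 2-fold change. Triangles mark the least fall of genes with 0 counts in P1 iMGCs, the open square with the dotted bar is the counting ratio of GRM6 and its 95% interval, and TRPM1 and BHLHE23 were not tested.

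Within D150-ROs, the mean FPKM of the 10 genes ran in the order CABP5, LHX4, CA10, VSX1, GRIK1, PRKCA, GRM6, TMEM215, BHLHE23 and TRPM1. CA10 (19.14 to 23.75) and VSX1 (19.01 to 22.32) overlapped, as did BHLHE23 and TRPM1, and the other neighbours in this order did not. Replicate 3 of the D150-ROs had the lowest value of CABP5, PRKCA, GRIK1, CA10 and TMEM215 and the highest of GRM6 and LHX4. Without that library, the 8 genes called between D150-ROs and D70-ROs were still 8.

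Further transcription factors of bipolar cells and their precursors divided into those that rose late and those that fell. This list of 10 included OTX2, ISL1, PRDM8, BHLHE22, IRX5, IRX6, NEUROD4, FEZF2 and LHX3. From hiPSCs to D70-ROs 8 of 9 tested were called higher in edgeR, 4 of which passed the filter through D70-ROs only. BHLHE22, a factor of cone bipolar and amacrine cells, had a log2 fold change of 8.05 and ISL1, which also serves retinal ganglion and amacrine cells, of 8.04. In the second step 6 of 10 were called higher and 3 lower, with a median of 1.38 (all genes −0.01). IRX6, an Iroquois factor of bipolar cells, rose by 6.23 on the log2 scale (standard error 0.18, Benjamini-Hochberg adjusted p = 3.58e-08 in edgeR), from 0.227 to 20.2 FPKM, and IRX5 rose by 2.71. IRX6 passed the filter through D150-ROs only, which favoured a rise, although D70-RO replicate 1 also reached the minimum. IRX5 passed in both groups. ISL1 fell by 3.56 on the log2 scale and FEZF2 by 1.76. In P1 iMGCs 10 of 10 were called lower than in D150-ROs, but 9 of these passed the filter through D150-ROs only, 7 of them with 0 counts in P1. All of the 9 had to be lower except PRDM8, which reached the minimum in P1 replicate 3. Set against the floor of 3 counts, the log2 ratio was at most −12.65 for NEUROD4, a factor of early photoreceptor and bipolar precursors with 29115 counts in D150-ROs. OTX2, with 21 counts in P1 iMGCs and 40742 in D150-ROs, had a log2 fold change of −10.30 (standard error 0.10, adjusted p = 1.75e-20 in edgeR).

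Between P5 and P1 iMGCs, 2 of the 3 tested factors of that list were called higher, against 2.64% of all genes. Of these, OTX2 passed the filter through P5 only and so had to be higher, whereas PRDM8 passed in both groups. OTX2, a factor of photoreceptors, bipolar cells and pigment epithelium, went from 0.31, 0.29 and 0.25 FPKM in P1 to 1.34, 1.56 and 1.64 in P5 (log2 fold change 2.92, standard error 0.32, adjusted p = 9.61e-08). PRDM8 went from 0.19, 0.19 and 0.25 to 1.08, 0.94 and 0.92 (log2 fold change 2.17, standard error 0.29, adjusted p = 1.75e-06), both by edgeR with Benjamini-Hochberg adjustment. The passages did not overlap for either gene, and both remained far below their D150-RO means of 447 and 10.3 FPKM. Against hiPSCs, P1 iMGCs had PRDM8 called higher (3.02) and 4 factors called lower, of which OTX2 fell by 6.94 on the log2 scale. PRDM8 passed the filter through P1 iMGCs only and these 4 through hiPSCs only, so their directions were fixed.

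Further genes enriched in bipolar cells rose from D70-ROs to D150-ROs where they could be tested. The list held PCP2, SCGN, CABP2, GABRR1, GABRR2, TACR3 and SAMSN1, and 6 of 6 tested were called higher in edgeR. Of these, 5 passed the filter through D150-ROs only and had to be higher, except CABP2 and SAMSN1, which reached the minimum in D70-RO replicate 2. GABRR2 passed in both groups, with a log2 fold change of 1.14 (adjusted p = 8.27e-05 in edgeR). GABRR1, a GABA receptor subunit of bipolar terminals, had 0.04, 0 and 0 FPKM at D70 and 2.74, 2.69 and 1.98 at D150. It had 2 counts at D70, and the 95% counting interval of the rise was 5.35 to 10.27 on the log2 scale. PCP2, a G protein modulator of ON bipolar cells, had 232 counts in D150-ROs and 2 in D70-ROs, with an interval of 4.79 to 9.71. SCGN, a calcium-binding protein of cone bipolar cells, stayed at 7 counts in D150-ROs and was not tested. In the first step only 2 of this list were tested, GABRR2 being called higher (5.36) and TACR3 lower (−4.34). GABRR2 passed the filter through D70-ROs only and TACR3 through hiPSCs only, so both directions were fixed. All 6 tested were called lower in P1 iMGCs than in D150-ROs, which had to be so, since all 6 passed the filter through D150-ROs only. SAMSN1 and GABRR1 had 0 counts in P1.

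Paralogs of the bipolar cell genes did not move as one group. Of 16 paralogs, 6 were called higher at D150 than at D70 and 3 lower, against 17.4% of all genes in each direction, with a median log2 fold change of −0.08. Of the receptors nearest to GRM6, GRM4 was highest in hiPSCs at 23.8 FPKM and stood at 2.17 in D150-ROs, GRM7 reached 0.597 and GRM8 0.76 FPKM in D150-ROs. TRPM3, the relative of TRPM1, had 2.29 FPKM in hiPSCs, 8.72 in ROs at D70 and 6.05 at D150, so this channel gene exceeded TRPM1 throughout. CABP4, the photoreceptor relative of CABP5, rose from 0.06 to 3.29 FPKM (log2 fold change 5.76, adjusted p = 1.19e-05 in edgeR) and CABP2 from 0.38 to 3.08, while CABP1 was at 0.63. GRM8 had the next largest rise after CABP4, of 4.09 on the log2 scale. Between the RO stages CABP4, CABP2, GRM7 and GRM8 passed the filter through D150-ROs only. All but CABP2, which reached the minimum in D70-RO replicate 2, had to be higher. A further 1 of the 16 passed through D70-ROs only. PRKCB, a kinase related to PRKCA, went from 4.06 FPKM in hiPSCs through 0.317 at D70 to 2.52 at D150. It did not follow PRKCA into the iMGCs, where it had 1 count at P1. GRIK2 (3.16 FPKM) and GRIK3 (6.73 FPKM) were below GRIK1 in D150-ROs, and GRIK2 was the one that remained in P1 iMGCs, at 1.69 ± 0.0737 FPKM. CA8 fell by 2.57 on the log2 scale between the stages, from 5.19 to 1.02 FPKM, and CA11 by 1.21, from 21.8 to 11.3. BHLHE22 and LHX3, paralogs of transcription factors among the 10 genes, had means of 7.17 and 2.66 FPKM in D150-ROs. In P1 iMGCs 12 of 14 tested were called lower than in D150-ROs and 0 higher, but 12 of the 14 had passed the filter through D150-ROs only.

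Markers of other retinal neurons changed over the same interval as the bipolar cell genes. The 7 photoreceptor markers had a summed FPKM of 87.3 to 92.4 in the D70-RO libraries and of 1269 to 1295 in the D150-RO libraries, and 7 of 7 were called higher. That of 7 amacrine and horizontal cell markers went from between 9.12 and 11.7 to between 41.6 and 70.7, with 5 of 7 called higher. The 6 retinal ganglion cell markers moved the other way, from a sum of 133 to 139 down to 9.65 to 13.1, with 6 of 6 called lower. The 10 bipolar cell genes summed to between 24.84 and 26.99 FPKM at D70 and between 286 and 332 at D150. In P1 iMGCs the photoreceptor markers summed to between 0.20 and 0.48 FPKM, with 4 or 5 of the 7 at 0, and 7 of 7 were called lower than in D150-ROs. The part of a shift in cell makeup in the levels of the bipolar cell genes was not tested.

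**Figure D4:**
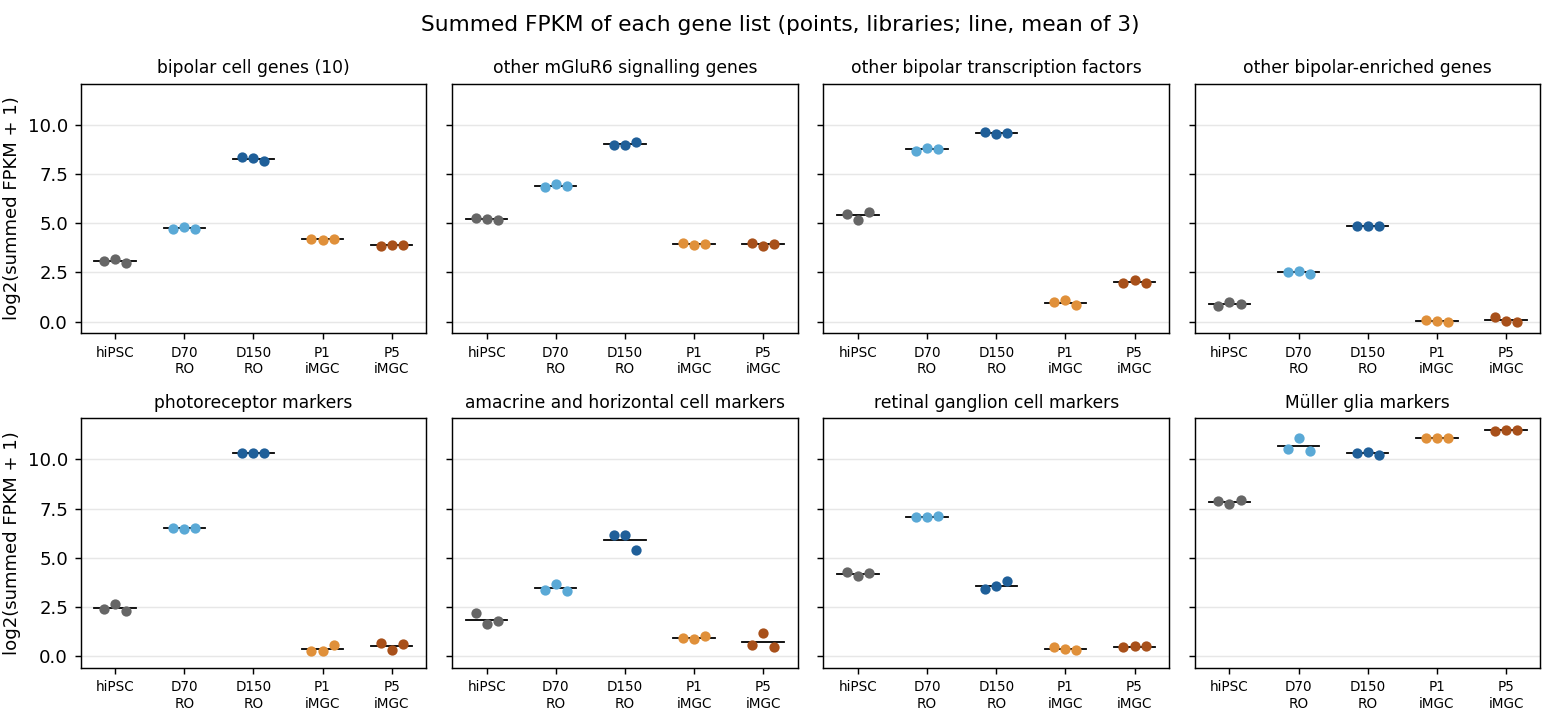
Summed FPKM of 8 gene lists on the vertical axis as log2(sum + 1) in the 3 libraries (points) of each group, with the mean as a line. The bipolar lists and the photoreceptor markers peaked in D150-ROs, the retinal ganglion cell markers in D70-ROs and the sum of the Müller glia markers, nearly all VIM, in P5 iMGCs.

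The genes whose pattern over the 15 libraries was most like that of GRM6, by Pearson's r on log2(FPKM + 1) among 13915 genes with at least 1 FPKM in at least 3 libraries, were KCNG4 (r = 0.997), PLD4 (0.997), RAX2 (0.996), PCDH15 (0.996) and PLA2G5 (0.995). A high r was common, since 454 genes exceeded 0.95, and the 15 points fall into 5 groups of which 1 was far above the rest. For TRPM1, no gene exceeded 0.95, and the closest included RELT (0.767), RLN2 (0.766), HIST2H2AC (0.752) and TMIGD2 (0.748), over levels that rest on at most 12 counts in any library.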

How the data were processed

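RNA-seq of 15 libraries was analysed from 2 deposited tables, 1 of hiPSCs and ROs and 1 of P1 and P5 iMGCs. The submitters' processing notes name HISAT2 for mapping, StringTie for assembly, RSEM and DESeq2, and versions, genome build and annotation are not given in the sources used here. The deposited expected counts are not normalized, and FPKM were scaled by the authors for transcript length and mapped reads. A further table repeats D150-ROs beside iMGCs whose passage its columns do not give, and its 12 columns were not used. Between 8.21% and 10.1% of expected counts were not whole, and all were rounded before the tests.

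Groups were compared 2 at a time in 6 comparisons with edgeR 4.0.16 in R 4.3.3, by the quasi-likelihood test with TMM factors, over genes passing filterByExpr (minimum count 10, minimum total 15), with p-values adjusted over all genes tested. limma 3.58.1 (pseudocounts 1 and 0.1) and DESeq2 1.42.0 were alternatives. The scripts were tested on simulated data. Intervals are at 95%, and a group at 0 counts is set against a floor of 3. Intervals of the edgeR fit include the spread between libraries, whereas counting intervals and the floor take account of counting error only. Within groups, all replicate pairs differed beyond sampling noise (chi-square per degree of freedom 2.33 to 33.65).

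The 10 genes and all lists were chosen with earlier results of these data known. All 10 are described; from each list up to 2 called genes with the largest rise and 2 with the largest fall whose libraries did not overlap are named, with the paralogs and the 5 genes most like GRM6 and TRPM1, and other list genes were named after their values were seen. Some genes these rules name are not reported here, although counts and medians of the lists include them. Symbols and positions are from GENCODE 29, promoters from RefSeq.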

Additional observations from a re-analysis of the deposited data

How the results depend on the processing

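Over all alternatives, 564 of 579 values of single bipolar cell genes kept their direction and their side of the limits, 15 kept the direction and lost the call, and 0 reversed. The count of bipolar cell genes called between D70-ROs and hiPSCs, 7 as reported, was 3 with a filter at 1 FPKM in 3 libraries, 3 with limma on log2(FPKM + 1) and 4 in a test against a 2-fold change, and 5 to 7 with each library left out. The first of these tests fewer genes, and the second shrinks fold changes of genes near the pseudocount. Between P1 iMGCs and hiPSCs the count of 4 became 7 with no filter, 2 with the FPKM filter and 2 with limma on log2(FPKM + 1). Without a filter TRPM1, BHLHE23 and TMEM215 were added, each at 0 counts in P1. Over all genes, the 4897 called between D150-ROs and D70-ROs became 3178 in the test against a 2-fold change, and the 569 between P5 and P1 iMGCs became 332, 152 and 211 with the FPKM filter, limma on log2(FPKM + 1) and the 2-fold test. With P5 in place of P1 iMGCs, or all 6 iMGC libraries, the same number of bipolar cell genes, 8, was called against D150-ROs.

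For libraries of equal replicate number, the deviations from the group means correlated between −0.074 and 0.337, highest for replicate 2 of D70-ROs and hiPSCs. Whether such libraries were paired cannot be told from these values. With the replicate block, 6692, 4936, 8772, 6544, 565 and 8168 genes were called in the 6 comparisons, and no call of a bipolar cell gene changed. Depth limits TRPM1 and BHLHE23 in every group, and most of the 10 genes in iMGCs.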
